A study of Mus musculus with 69 samples.

Results

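Macrophages grown from the bone marrow of C57 mice expressed 18 genes that gave almost no RNA in the same cells of at least 1 of the strains BALB, NOD, PWK and SPRET. A gene entered this set when it had at least 5 TPM in all 3 basal or all 3 24hIL4 C57 libraries and stayed below 0.1 TPM in every basal and 24hIL4 library of another strain. TPM, used throughout for the deposited expression values, scales reads to transcript length and library size. Of 24537 genes listed, 7215 reached the C57 level, and the 18 genes were 0.249% of them. BALB had 0 silent genes, NOD had 2 (0.0277%), PWK had 5 (0.0693%) and SPRET had 13 (0.18%), with 2 of them, Klk1b11 and Msx3, silent in both PWK and SPRET and none silent in 3 or 4 strains. Since the levels in C57 and in the silent strain chose the genes, the differences between them are given as a description, with no test.

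The cells were bone marrow-derived macrophages (BMDMs) of young adult mice of the inbred strains C57BL/6J (C57), PWK/PhJ (PWK), SPRET/EiJ (SPRET, of another mouse species), BALB/cJ (BALB) and NOD/ShiLtJ (NOD), grown with the macrophage growth factor M-CSF. They were left untreated (basal) or given the cytokine IL-4 at 20 ng/ml for 24 hours, with 3 libraries for each strain and state except 2 for basal PWK. A second experiment followed C57 and SPRET cells at basal, 1, 6 and 24 hours of IL-4, with 2 libraries at each time. A further experiment did the same for Egr2flfl cells, with a floxed Egr2 gene and no Cre, and for LyzMCre Egr2flfl cells, in which Cre driven by the myeloid LyzM promoter deletes Egr2, a transcription factor induced by IL-4. First-generation (F1) hybrids of C57 with NOD and of C57 with SPRET gave values for each parental allele in 2 basal and 2 24hIL4 libraries. Nothing in the labels says that libraries of a group came from separate animals, so p-values measure the spread between libraries, which may be technical.

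IL-4 acts through its receptor and the transcription factor STAT6 and moves macrophages into the alternatively activated state. Interferons induce antiviral genes such as the Oas, Ifi and Schlafen families, many of them through a promoter sequence called the interferon-stimulated response element. Inbred strains differ in single bases, insertions and deletions, and clustered gene families such as these often differ between strains in copy number and sequence.

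The 29 libraries of the 5 strains held 7.02 to 22.5 M tags, those of the time course 5.70 to 24.0 M tags and those of the Egr2 experiment 4.69 to 32.9 M tags. Macrophage identity was checked with 8 markers, whose summed level was between 11020 and 30790 TPM with none of them absent from a strain. The 6 listed T cell markers summed to 0.93 to 3.77 TPM and the 5 B cell markers to 0 to 3.76 TPM. The 8 markers of neutrophils and their precursors summed to 16.8 to 131 TPM in C57, 551 to 601 TPM in PWK and 249.1 to 404 TPM in SPRET, and 5, 2 and 6 of the 8 were below 1 TPM in every library of these strains. The 5 stromal markers summed to 3.77 to 6.4 TPM in C57, 12.4 to 16.9 TPM in NOD and 105 to 210 TPM in PWK. The 4 mast cell or basophil markers summed to 0.12 to 0.36 TPM in C57 and 4.91 to 9.2 TPM in SPRET. Their part in the differences between strains was not tested. In these bulk samples, fewer cells of a type and less RNA per cell cannot be told apart.

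The silent genes were of modest level in C57. Their median C57 level was 7.14 TPM, against 19.32 TPM for all 7215 genes, and 16 of 18 (88.9%) had a C57 mean below 15 TPM, against 40.7%. Since TPM values in the table of the 5 strains fall on whole multiples of 1 read (92.3% to 95.1% of values under 10 reads were within 0.15 of a whole number), reads could be recovered. The 18 genes had 394 (Klk1b11) to 4056 (Vill) reads over the 6 C57 libraries. In the 20 pairs of a gene and a silent strain, all libraries together held 0 to 12 reads, with a median of 2.5 and at most 5 in 1 library. Bambi-ps1, Il1f9 and Klk1b11 had 0 reads in all 6 SPRET libraries. The level of 0.1 TPM stood for 0.85 to 7.82 reads, so that a gene could be silent by the rule with several reads.

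Some genes lay close to the limits. The highest values in a silent strain were 0.098 TPM for Klk1b11 in PWK, 0.098 TPM for Nck2 in SPRET and 0.097 TPM for Trim12a in NOD. Just outside were Dynlt1c in SPRET at 0.101 TPM, 2610507I01Rik in NOD at 0.102 TPM, Dnaaf3 in PWK at 0.116 TPM and Trim12a in BALB at 0.123 TPM, each by its highest library. On the C57 side, the lowest values that met the rule were 5.304 TPM for Nck2 and 5.485 TPM for AI839979, and the closest that missed it were 4.837 TPM for 1110002J07Rik and 4.651 TPM for Lims2. Applied in the other direction, with C57 as the silent strain, the rule found 0 genes expressed in BALB, 0 in NOD, 4 in PWK (H2-T3, Mir7035, Nox3 and Serpinb10) and 10 in SPRET.

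**Figure D1:**
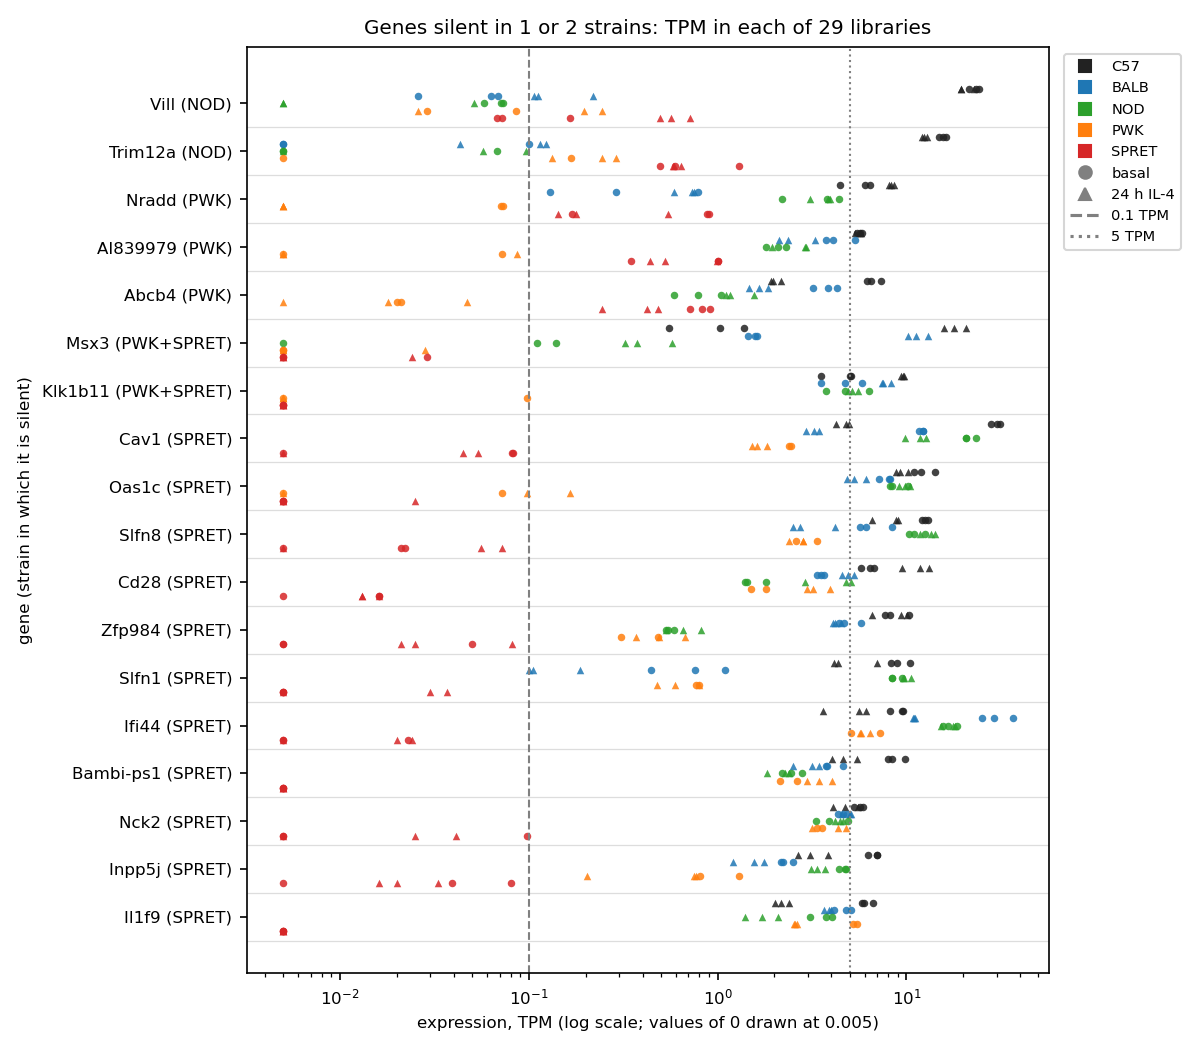
Level of each of the 18 genes in the 29 libraries of the 5 strains, in TPM on a log axis with values of 0 drawn at 0.005. Genes sit in the order of the strain in which they were silent, and the values of the silent strain lie below 0.1 TPM while those of C57 reach 5 TPM in at least 1 state.

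Vill and Trim12a were silent in NOD. Vill (chr9:119052778-119071525, plus strand, build mm10) encodes a villin-like protein of the actin-binding villin family and had the highest C57 mean of the 18 genes, 21.76 TPM. Its C57 libraries gave 23.3, 21.4 and 24.2 TPM at basal and 19.5, 19.4 and 22.8 TPM after IL-4, and its NOD libraries 0.073, 0.058 and 0.071 TPM at basal and 0, 0 and 0.051 TPM after IL-4. Every C57 library was above every NOD library, and Vill stayed below 1 TPM in every library of BALB, PWK and SPRET as well, so that C57 was the only strain of this experiment with 1 TPM or more.

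Trim12a (chr7:104299897-104315495, minus strand) belongs to the tripartite motif family of ubiquitin ligases and lies in the cluster that holds the antiviral Trim5. C57 libraries gave 14.8, 16.2 and 15.6 TPM at basal and 12.1, 12.4 and 12.9 TPM after IL-4, against 0, 0 and 0.068 TPM and 0.057, 0 and 0.097 TPM in NOD. BALB libraries reached no more than 0.123 TPM, with 2 of its 6 libraries above the limit of 0.1 TPM. The closest relative in the transcriptome, Trim12c, was 96.0% identical over 967 bases, and 5.58% of the 75-base stretches of Trim12a occur in other genes, so reads could be shared. Trim12c itself was at 14.1 to 25.6 TPM in C57, 10.0 to 22.2 TPM in BALB and 6.72 to 7.94 TPM in SPRET. It was lowest in NOD, at 1.19 to 1.89 TPM, and PWK, at 0.041 to 0.28 TPM. Trim12a was low in these 2 strains too, at most 0.097 and 0.291 TPM, but also in BALB and SPRET, at most 0.123 and 1.3 TPM. Whether reads were shared was not tested.

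Nradd, Abcb4 and AI839979 were silent in PWK alone. Nradd (chr9:110621135-110624393, minus strand) encodes a membrane protein with a death domain that is related to the neurotrophin receptor. Its C57 libraries gave 6.38, 4.47 and 6.05 TPM at basal and 8.58, 8.30 and 8.05 TPM after IL-4, and its PWK libraries 0.073 and 0.071 TPM at basal and 0, 0 and 0 TPM after IL-4. NOD was intermediate at 2.20 to 4.37 TPM, while BALB and SPRET stayed below 1 TPM in every library.

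Abcb4 (chr5:8893721-8959226, plus strand) encodes a transporter of phosphatidylcholine of the P-glycoprotein family. Its C57 level was 6.52, 6.18 and 7.37 TPM at basal and 1.92, 1.96 and 2.18 TPM after IL-4, and its PWK level between 0 and 0.047 TPM. The relative Abcb1a (77% identity over 3541 bases) had its lowest level in SPRET, at 0.022 to 0.124 TPM, and 2.31 to 3.26 TPM in PWK. The adjacent Abcb1b had means of 1.57 TPM in C57 and 2.0 TPM in BALB. In NOD, PWK and SPRET its means were 0.13, 0.092 and 0.031 TPM. Whether the levels of these genes are linked was not tested. AI839979 (chr5:31569592-31571397, minus strand), a noncoding RNA of unknown role, gave 5.49, 5.70 and 5.82 TPM at basal and 5.74, 5.70 and 5.36 TPM after IL-4 in C57 and 0 to 0.086 TPM in PWK.

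Klk1b11 and Msx3 were silent in both PWK and SPRET. Klk1b11 (chr7:43995877-43999875, plus strand) encodes a glandular kallikrein, a serine protease of a large clustered family. Its C57 libraries gave 5.03, 3.51 and 5.09 TPM at basal and 9.56, 9.34 and 9.70 TPM after IL-4, its PWK libraries 0.098 and 0 TPM at basal and 0, 0 and 0 TPM after IL-4, and all 6 SPRET libraries 0 TPM. BALB and NOD had 3.51 to 8.27 TPM. The neighbouring entries Klk1b26 and Egfbp2 showed the opposite order, with means of 5.22 and 5.37 TPM in PWK and 0.026 TPM for each in C57. They start 12803 and 12822 bases beyond the end of Klk1b11, and their values were nearly equal in every strain. The 2 entries thus lie at the same place and may count the same reads. Of the 75-base stretches of Klk1b11, 6.84% occur in other kallikrein genes.

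Msx3 (chr7:140046157-140049088, minus strand) encodes a homeobox transcription factor. It gave 1.39, 1.02 and 0.55 TPM at basal and 17.8, 20.7 and 15.8 TPM after IL-4 in C57, and no more than 0.028 TPM in PWK and 0.029 TPM in SPRET. NOD was low without being silent, at 0 to 0.57 TPM. The gene 5552 bases away, Zfp511, was at similar means in all 5 strains, 21.7 TPM in C57, 18.3 TPM in PWK and 23.4 TPM in SPRET.

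Slfn1, Slfn8, Oas1c and Ifi44, silent in SPRET, belong to interferon-induced or Schlafen families. Interferon-inducible symbols were 11.1% of the 18 genes against 0.541% of the 7215, and Schlafen genes 11.1% against 0.0554%, with 2 genes of each, a count from a set chosen on these data and not tested. Their promoters are shown because Slfn1, Slfn8 and Ifi44 were all higher in cells without Egr2, as described with that experiment. The windows are the 250 bases before the RefSeq start (GRCm38.p6), 5′ to 3′ on the gene's strand, with matches to the response element (GAAA, any 2 bases, GAAA, on either strand) in capitals. They are Slfn1 at chr11:83116570-83116819 (plus), Slfn8 at chr11:83020811-83021060 (minus), Oas1c at chr5:120812515-120812764 (minus) and Ifi44 at chr3:151749911-151750160 (minus).

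Slfn1: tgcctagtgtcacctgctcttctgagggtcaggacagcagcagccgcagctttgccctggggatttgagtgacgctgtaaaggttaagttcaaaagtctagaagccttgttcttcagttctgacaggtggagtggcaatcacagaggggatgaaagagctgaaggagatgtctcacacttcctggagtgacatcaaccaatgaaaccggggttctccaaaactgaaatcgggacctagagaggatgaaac

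Slfn8: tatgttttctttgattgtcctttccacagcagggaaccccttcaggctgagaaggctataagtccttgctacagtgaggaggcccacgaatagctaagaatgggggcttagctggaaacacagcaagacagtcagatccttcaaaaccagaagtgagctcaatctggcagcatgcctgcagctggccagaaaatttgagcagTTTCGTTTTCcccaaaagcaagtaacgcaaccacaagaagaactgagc

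Oas1c: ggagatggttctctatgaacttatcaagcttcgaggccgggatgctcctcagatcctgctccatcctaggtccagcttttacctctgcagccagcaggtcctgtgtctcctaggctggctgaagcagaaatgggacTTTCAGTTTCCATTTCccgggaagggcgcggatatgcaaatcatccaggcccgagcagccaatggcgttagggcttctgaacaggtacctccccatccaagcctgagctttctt

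Ifi44: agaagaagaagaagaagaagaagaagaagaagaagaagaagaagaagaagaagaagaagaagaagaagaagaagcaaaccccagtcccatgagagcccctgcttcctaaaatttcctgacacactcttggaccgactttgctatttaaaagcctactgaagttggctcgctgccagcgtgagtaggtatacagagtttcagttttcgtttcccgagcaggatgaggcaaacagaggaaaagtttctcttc

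Slfn8 held 1 match, at bases 203 to 212 of the window, and Oas1c 2 overlapping matches, at bases 137 to 146 and 143 to 152. The Slfn1 and Ifi44 windows held no exact match. Stretches that differ from the pattern at 1 base occur in both, aaaactgaaa in Slfn1 and tttcagtttt and ttttcgtttc in Ifi44. Near matches were not counted in any window. Of all 32536 promoter windows, 969 (2.98%) held at least 1 match. A match is a description of the reference sequence, which is that of C57, and the sequences of the other strains were not analysed here.

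Slfn8 (chr11:83002158-83020810, minus strand) and Slfn1 (chr11:83116845-83122659, plus strand) are Schlafen genes, a family linked to interferon and to lymphocyte quiescence. Slfn8 gave 13.0, 12.1 and 12.6 TPM at basal and 8.83, 9.07 and 6.55 TPM after IL-4 in C57, against 0 to 0.072 TPM in SPRET. Slfn1 gave 8.87, 10.4 and 8.27 TPM at basal and 4.35, 7.00 and 4.12 TPM after IL-4 in C57, against 0 to 0.037 TPM in SPRET. Slfn1 was also low in BALB (0.10 to 1.10 TPM) and PWK (0.477 to 0.80 TPM), whereas NOD had 8.35 to 10.6 TPM. Another member of the cluster, Slfn2, was abundant in both strains, with means of 563 TPM in C57 and 414 TPM in SPRET. The closest relative of Slfn8, Slfn9 (92.0% identity over 3853 bases), was at 0.088 to 0.997 TPM in C57 and 0.665 to 0.831 TPM in SPRET. In the time course Slfn9 was at 1.10 to 4.32 TPM in C57 and 4.34 to 6.53 TPM in SPRET. Whether reads of Slfn8 were counted for Slfn9 was not tested.

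Oas1c (chr5:120800199-120812514, minus strand) belongs to the oligoadenylate synthetases, which sense double-stranded RNA. It gave 11.97, 14.2 and 10.97 TPM at basal and 9.25, 8.82 and 10.2 TPM after IL-4 in C57, and 1 read in all 6 SPRET libraries together. In PWK it reached 0.166 TPM in 1 library and was otherwise below 0.1 TPM. Nearby genes of the cluster differed in both directions, Oas3 with means of 71.8 TPM in C57 and 6.69 TPM in SPRET and Oas1b with 3.57 and 13.8 TPM. Ifi44 (chr3:151730923-151749959, minus strand), an interferon-induced gene, gave 9.53, 9.55 and 8.23 TPM at basal and 5.60, 6.10 and 3.62 TPM after IL-4 in C57 and 0 to 0.024 TPM in SPRET. Its highest levels were in BALB, at 36.5, 29.1 and 25.1 TPM at basal, where the neighbouring Ifi44l also had RNA (mean 9.36 TPM, against 0.026 TPM in C57 and 0 TPM in the other strains).

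Cd28, Nck2, Il1f9 and Inpp5j act in signalling. Cd28 (chr1:60746388-60773359, plus strand), the co-stimulatory receptor best known from T cells, gave 6.38, 6.73 and 5.78 TPM at basal and 13.2, 11.8 and 9.51 TPM after IL-4 in C57 and 0 to 0.016 TPM in SPRET. Reads numbered 2525 in C57 and 5 in SPRET. The listed T cell markers summed to 1.24 to 1.83 TPM in C57, 3.06 to 3.77 TPM in NOD and 1.77 to 2.41 TPM in SPRET, and their part in the Cd28 values was not tested. The genes next to Cd28, Ctla4 and Icos, had means of 0.012 and 0.028 TPM in C57.

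Nck2 (chr1:43445751-43570518, plus strand) encodes an adaptor that joins phosphorylated receptors to actin regulators. C57 gave 5.30, 5.91 and 5.70 TPM at basal and 5.53, 4.75 and 4.10 TPM after IL-4, and SPRET 0, 0.098 and 0 TPM and 0.025, 0 and 0.041 TPM. Its paralog Nck1 (67.1% identity over 1152 bases) had the reverse order, with 16.2 to 25.4 TPM in C57 and 79.4 to 108 TPM in SPRET, and the time course, whose libraries the rule did not use, gave 19.9 to 31.3 TPM and 149 to 189 TPM. By limma on log2(TPM + 1), Nck1 was higher in SPRET by 3.12 (SE 0.07, adjusted p = 2.87e-12) at basal and by 2.73 (SE 0.07, adjusted p = 6.32e-12) at 24 hours. Other relatives of SPRET genes went both ways at these times. Slfn9, the relative of Slfn8, differed by 0.74 and 1.26. Gm13212, the relative of Zfp984, differed by -1.59 and -1.82, and Bambi, the relative of Bambi-ps1, by -1.13 and -1.14.

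Il1f9 (chr2:24186476-24193567, plus strand), a cytokine of the IL-1 family, gave 5.79, 6.61 and 5.96 TPM at basal and 2.00, 2.17 and 2.38 TPM after IL-4 in C57 and 0 TPM in every SPRET library. Inpp5j (chr11:3494272-3504821, minus strand), a phosphatase of inositol lipids, gave 6.25, 6.95 and 7.01 TPM at basal and 2.68, 3.08 and 3.82 TPM after IL-4 in C57 and 0 to 0.08 TPM in SPRET. Of its exon bases, 7.88% overlap Pla2g3 on the other strand, and Pla2g3 had a mean of 0.027 TPM in C57. The neighbour Selenom had means of 65.8 TPM in C57, 8.97 TPM in PWK and 2.47 TPM in SPRET, and so was low in the same strains as Inpp5j.

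Cav1, Zfp984 and Bambi-ps1 complete the SPRET genes. Cav1 (chr6:17307640-17341328, plus strand) encodes caveolin, the scaffold of caveolae, and gave 27.9, 30.0 and 31.4 TPM at basal and 4.98, 4.79 and 4.23 TPM after IL-4 in C57. SPRET gave 0.082, 0.081 and 0 TPM at basal and 0.054, 0 and 0.045 TPM after IL-4, or 10 reads against 2947 in C57. Cav2, the adjacent partner gene, had a mean of 17.2 TPM in C57 and 1.27 TPM in SPRET, so that it was lower there too without being silent.

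Zfp984 (chr4:147753974-147809788, minus strand), a zinc finger gene, gave 10.4, 7.72 and 8.23 TPM at basal and 10.0, 9.37 and 6.60 TPM after IL-4 in C57 and 0 to 0.081 TPM in SPRET. Its value is the least certain of the 18, because 40.9% of its 75-base stretches occur in other genes. Its relative Gm13212 (94.6% identity over 1849 bases) was at 0 to 0.063 TPM in SPRET and 2.51 to 3.93 TPM in C57. Bambi-ps1 (chr2:122466583-122467797, minus strand), a processed pseudogene by its name and single exon, gave 9.78, 8.38 and 7.999 TPM at basal and 4.59, 5.49 and 4.05 TPM after IL-4 in C57.

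**Figure D2:**
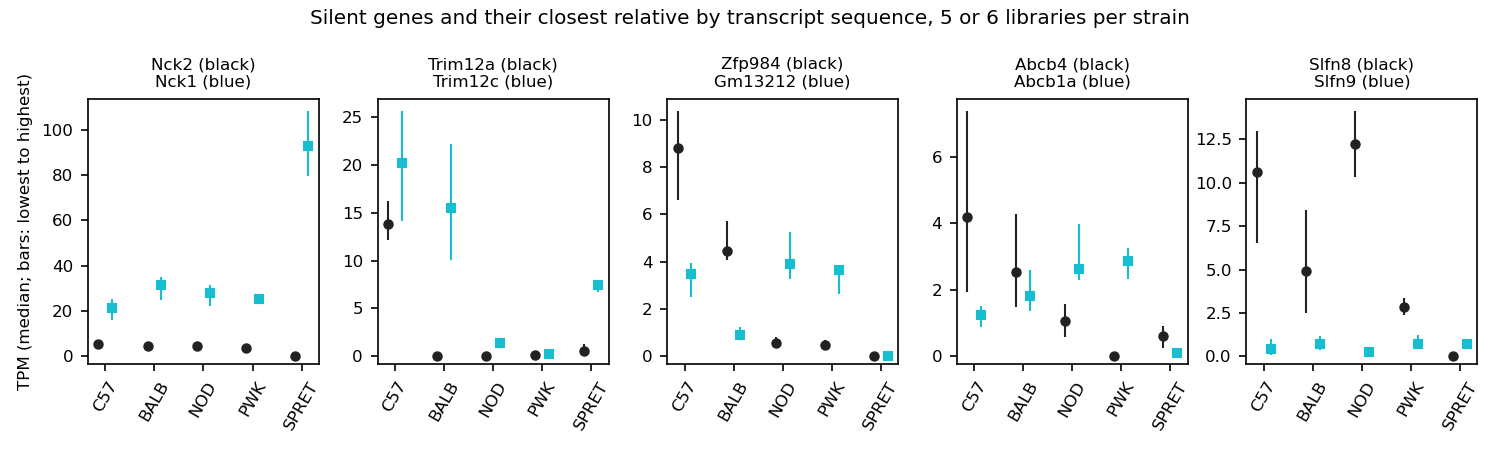
Levels in TPM of 5 members (black) and of their closest relatives by sequence (blue) in the 5 strains, as the median of 5 or 6 libraries with bars from the lowest to the highest. Nck1 lies at 79.4 to 108 TPM in SPRET, above the 16.2 to 25.4 TPM of C57, while Nck2 lies below 0.1 TPM there. Gm13212 goes the other way, at 0 to 0.063 TPM in SPRET and 2.51 to 3.93 TPM in C57.

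Of the immediate neighbours with a C57 mean of at least 1 TPM, none was silent in the strain concerned. They were 11 of 26 neighbours for SPRET, 7 of 10 for PWK and 2 of 4 for NOD, the rest being too low in C57 to judge, and 4, 2 and 2 of them were below 0.5 of their C57 mean. Next to the SPRET genes, the neighbours had a SPRET to C57 ratio of 0.038 to 3.86 with a median of 0.735. Next to the PWK genes they had a ratio of 0.059 to 1.87 with a median of 0.799, and next to the NOD genes they had ratios of 0.275 and 0.435. The ratio of 0.059 was that of Abcb1b, next to Abcb4, with means of 1.57 TPM in C57 and 0.092 TPM in PWK. Its highest PWK library was at 0.116 TPM, just above the limit of 0.1 TPM. Whether the DNA of a gene is deleted or altered in a strain, or its reads failed to align to that strain's genome, was not tested, since the expression tables hold no genomic reads.

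The other strains often had low levels too. Among members not silent there, 3 of 18 stayed below 1 TPM in every library of BALB, 2 of 16 in NOD, 5 of 13 in PWK and 3 of 5 in SPRET. For comparison, the shares of all 7215 genes that did so were 0.208%, 0.499%, 0.707% and 1.48%. These shares and the members come from the same table and are a description.

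The time course gave C57 and SPRET libraries that the rule did not use. The labels do not say whether they came from other animals. In them 12 of the 13 SPRET genes had all 8 SPRET libraries below all 8 C57 libraries, against 18.1% of all genes at the C57 level. The exception was Slfn1, whose highest SPRET value of 0.26 TPM exceeded the lowest C57 value of 0.18 TPM. Of the 104 SPRET values of the 13 genes, 71 were below 0.1 TPM, 42 were 0 and none reached 1 TPM.

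Summed over the 13 genes, the level was 0.683 to 2.24 TPM in a SPRET library and 88.3 to 140 TPM in a C57 library. The highest SPRET sums, 2.24 and 1.78 TPM, were the 2 libraries at 6 hours. Only Oas1c was below 0.1 TPM in all 8 SPRET libraries, so the strict limit that chose the genes was not met again by the others. The C57 limit of 5 TPM was not met again by every gene either. Slfn1, Inpp5j and Ifi44 reached at most 2.65, 2.90 and 4.24 TPM in a C57 library. Oas1c had 4.76 and 4.35 TPM at basal and 2.69 and 2.67 TPM at 24 hours in C57.

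By limma, with every difference given on the log2(TPM + 1) scale, 13 of 13 genes were called lower in SPRET at basal (adjusted p under 0.05 and more than 2-fold), against 8.88% of all genes tested, and 11 of 13 at 24 hours of IL-4, against 9.75%. All 13 passed the filter on low values through the C57 libraries, so these counts are no support of their own. Cd28 differed most, by -4.50 (SE 0.12, adjusted p = 1.39e-11) at basal and -4.90 (SE 0.12, adjusted p = 5.91e-12) at 24 hours. C57 Cd28 was 25.9 to 30.4 TPM in all 8 time course libraries, against 5.78 to 13.2 TPM in the first experiment. The 2 genes not called at 24 hours were Inpp5j (-0.61, SE 0.15, adjusted p = 0.00395) and Slfn1 (-0.13, SE 0.17, adjusted p = 0.521), which had only 0.612 to 0.77 TPM and 0.18 to 0.286 TPM in C57 at that time.

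**Figure D3:**
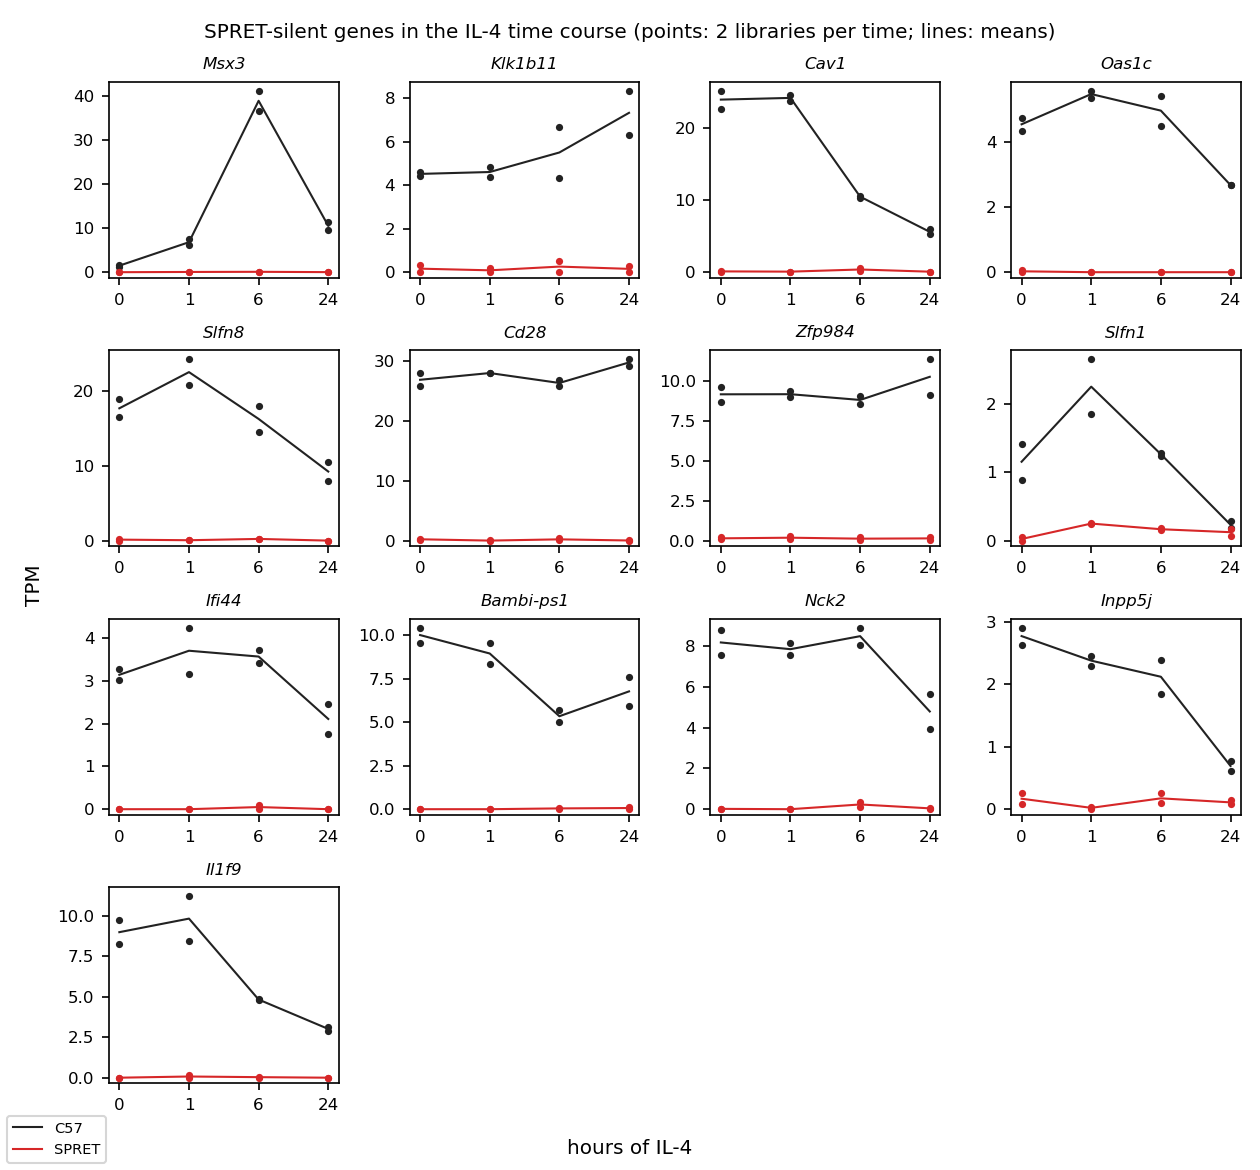
Levels in TPM (points, libraries; lines, means) of the SPRET-silent genes in the 8 C57 and 8 SPRET libraries of the time course at basal (0), 1, 6 and 24 hours of IL-4, drawn at equal steps. The SPRET libraries stay below 1 TPM throughout, and Slfn1 is the gene whose ranges overlap.

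IL-4 moved several of the genes in C57. In the time course, 1 of 18 was raised by 24 hours, against 2.85% of all genes, and 4 of 18 were lowered, against 2.91%. Msx3 rose by 2.22 (SE 0.14, adjusted p = 1.24e-07), from 1.25 and 1.72 TPM at basal to 36.6 and 41.2 TPM at 6 hours and 9.60 and 11.5 TPM at 24 hours. Cav1 fell by 1.92 (SE 0.13, adjusted p = 2.52e-07), from 25.2 and 22.7 TPM to 5.95 and 5.25 TPM. Abcb4 fell by 1.77, Il1f9 by 1.31 and Inpp5j by 1.16.

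In the strains where the genes were not silent by the rule, the calls for 24 hours of IL-4 differed from strain to strain. In BALB 3 of 18 were called, against 2.08% of all genes. They were Cav1 (-1.63, SE 0.08), Ifi44 (-1.37, SE 0.13) and Msx3 (2.29, SE 0.12). In NOD 1 of 16 was called, against 1.19%, Cd28 at 1.02 (SE 0.13, adjusted p = 9.9e-07), and this call was lost without replicate 1 (0.91) or replicate 3 (0.98), and with median-ratio scaling (0.93), where Cav1 (-1.04) was called instead. In PWK 0 of 13 were called, against 2.08%, and in SPRET 0 of 5, against 3.94%. A gene below 1 TPM in every library could not pass the 2-fold limit on this scale. That held for 5 of the 13 genes in PWK and 3 of the 5 in SPRET, and for 3 of 18 in BALB and 2 of 16 in NOD. The counts of 0 therefore do not show a lack of response. Among the SPRET values Vill went from 0.068 to 0.165 TPM at basal to 0.495 to 0.712 TPM after IL-4, and in the time course from 0.652 and 0.609 TPM to 2.53 and 2.49 TPM, without overlap in either experiment.

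Ifi44, Slfn8 and Slfn1 were higher in cells without Egr2 and Il1f9 was lower. Egr2 itself was at 21.3 to 101 TPM in the 8 Egr2flfl libraries and 0.85 to 7.05 TPM in the 8 LyzMCre Egr2flfl libraries, without overlap. At basal 4 of 18 genes were called, against 0.853% of all genes, and at 24 hours 4 of 18, against 4.55%. Both times had these 4 genes. At 1 hour Slfn8 missed the 2-fold limit (0.98, adjusted p = 4.83e-05) while Ifi44, Slfn1 and Il1f9 were called in the same direction, and at 6 hours Slfn1 was not called (0.68, adjusted p = 0.0934) while Ifi44, Slfn8 and Il1f9 were. The fourth interferon-related gene of the set, Oas1c, was not called at basal (0.21, SE 0.14, adjusted p = 0.416) or at 24 hours (0.43, SE 0.14, adjusted p = 0.0312, under 2-fold).

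Ifi44 was at 4.14 and 5.53 TPM in basal Egr2flfl cells and 10.9 and 11.6 TPM in basal LyzMCre Egr2flfl cells. At 24 hours the values were 1.45 and 1.24 TPM and 9.78 and 9.30 TPM, a difference of 2.17 (SE 0.14, adjusted p = 1.97e-07). Slfn8 went from 17.9 and 17.3 TPM to 38.2 and 35.3 TPM at basal and from 7.53 and 7.42 TPM to 27.8 and 29.005 TPM at 24 hours, a difference of 1.79 (SE 0.10, adjusted p = 5.7e-08). In both genes and at both times the genotypes did not overlap.

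Slfn1 was low in Egr2flfl cells, at 1.10 and 0.95 TPM at basal and 0.075 and 0.169 TPM at 24 hours, and reached 4.67 and 4.17 TPM and 1.76 and 1.39 TPM without Egr2, with differences of 1.42 (SE 0.27, adjusted p = 0.00415) and 1.20 (SE 0.27, adjusted p = 0.00392). Il1f9 was lower without Egr2, at 4.25 and 4.41 TPM against 9.49 and 10.9 TPM at basal (-1.07, SE 0.12, adjusted p = 0.00014) and 0.332 and 0.559 TPM against 1.79 and 2.19 TPM at 24 hours (-1.05, SE 0.12, adjusted p = 3.43e-05). The basal calls were sensitive to the libraries used, with 1 gene called without replicate 1 and 2 without replicate 2. Slfn1 lost its basal call without replicate 1 (adjusted p = 0.116) and without replicate 2 (adjusted p = 0.0985), and its 24-hour call without replicate 1 (adjusted p = 0.109), while its genotypes did not overlap at either time.

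Calls without Egr2 in the interferon-inducible and Schlafen lists, Ifi44, Slfn8 and Slfn1 included, all went the same way. Lists of other members were mixed at 24 hours. Of 66 cytokines and receptors, Il1f9 among them, 11 were higher and 10 lower. Of 39 Trim genes 3 were higher and 1 lower, and of 337 zinc finger genes 2 and 2. The interferon-inducible list holds symbols that start with Ifi, Gbp, Iigp, Irgm, Irgb, Oas, Ifit, Isg or Mx. It goes by symbol alone, with no test of induction by interferon. Of its 53 genes tested, 12 were higher and 0 lower without Egr2 at basal, and 30 higher and 0 lower at 24 hours. Of 9 Schlafen genes, 2 and 5 were higher and 0 lower. Of all genes, 0.373% were higher at basal and 2.42% at 24 hours, and 0.48% and 2.14% were lower. With shares of lower calls this small, 0 lower calls among 9 or 53 genes say little. The median of all genes shifted by 0.12 at 24 hours, and after scaling by median ratios 28 interferon-inducible genes were higher. In the time course, 32 of 51 interferon-inducible genes, Oas1c and Ifi44 among them, were lower in SPRET than in C57 at basal and 5 higher, against 8.88% and 9.92% of all genes. At 24 hours 26 were lower and 5 higher, against 9.75% and 10.7%, and the median difference of the list was -1.52 at basal and -1.04 at 24 hours.

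Other members changed less. Cd28 was 86.4 and 88.1 TPM in Egr2flfl and 154 TPM in both LyzMCre Egr2flfl libraries at 24 hours (0.82, SE 0.05, adjusted p = 6.46e-08), which is under the 2-fold limit. Trim12a differed by 0.90 (SE 0.17, adjusted p = 0.00166) and Msx3 by 0.66 (SE 0.11, adjusted p = 0.000647) at 24 hours. Of the 18 genes, 15 had at least 1 TPM in all 16 libraries of this experiment.

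**Figure D4:**
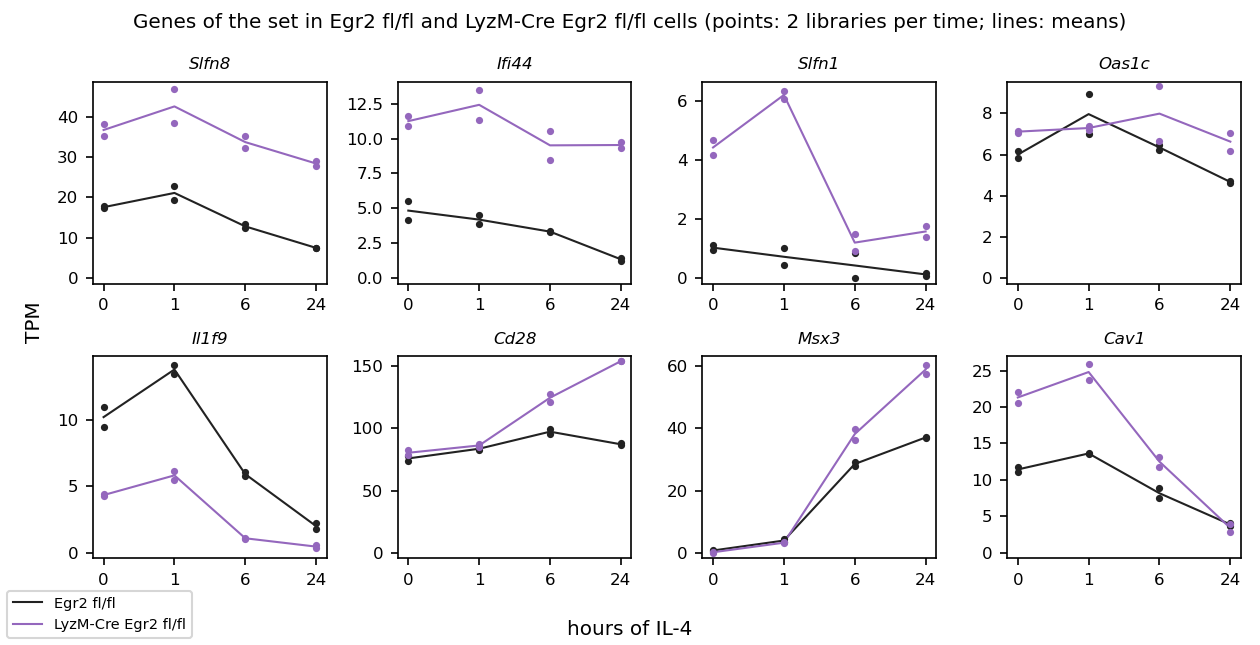
Levels in TPM (points, libraries; lines, means) of 8 members in Egr2flfl and LyzMCre Egr2flfl cells by hours of IL-4, drawn at equal steps. Ifi44 and Slfn8 lie higher without Egr2 at basal and 24 hours, and Il1f9 lies lower.

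The hybrids place both alleles in 1 cell. Their values are not TPM but the gene's expression weighted by the ratio of reads that cover a base differing between the parents, and only the alleles of 1 hybrid are compared. In the hybrid of C57 and SPRET, 4 of 13 genes were called lower on the SPRET allele, against 3.14% of all genes tested. Only 7 of the 13 passed the filter on low values. Oas1c, Cav1 and Inpp5j would not have passed on their SPRET values alone, so the count is no support of its own.

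Klk1b11 was at 30.9 and 22.9 at basal and 23.9 and 29.2 after IL-4 on the C57 allele, and at 2.60, 4.55, 1.65 and 4.96 on the SPRET allele, which limma put at -2.71 in log2 units (adjusted p = 0.0029). Oas1c was at 3.56 to 4.75 on the C57 allele and 0.107 to 0.78 on the SPRET allele (-1.98). Cd28 was at 27.2 to 114 and 6.52 to 24.1 (-1.92), and Cav1 at 3.69 to 5.97 and 0.51 to 1.87 (-1.58). The call of Cav1 was lost without 24hIL4 replicate 1 (adjusted p = 0.0534) or basal replicate 2 (adjusted p = 0.0518). In these 4 genes the alleles differed in the same direction in all 4 libraries, and the SPRET allele gave 7.58% (Oas1c) to 18.5% (Cd28) of the summed value.

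The SPRET allele was below the C57 allele in all 4 libraries for 6 of 13 genes (Cav1, Cd28, Inpp5j, Klk1b11, Nck2 and Oas1c), against 23.8% of all genes at the C57 level. For the other genes the hybrid gave little. Msx3 was at 19.3 and 14.97 after IL-4 on the C57 allele and 1.80 and 6.15 on the SPRET allele, and 0 on both at basal. Ifi44 had the higher value on the SPRET allele in 3 of 4 libraries. Slfn8 and Bambi-ps1 were listed at 0 on the C57 allele in all 4 libraries, although both had RNA in C57 cells, and Bambi-ps1 had a single SPRET value of 11.4, in the second 24hIL4 library. That library had the highest SPRET to C57 ratio for Cav1 (0.475, against 0.086 to 0.155) and Oas1c (0.219, against 0.026 to 0.079). The same held for Cd28 (0.385), Inpp5j (0.784), Nck2 (0.699), Msx3 (0.411) and Zfp984 (1.44). For Klk1b11 (0.17) and Ifi44 (8.61) the second basal library was higher, at 0.198 and 11.1. Whether that 24hIL4 library was shifted towards the SPRET allele in general was not tested.

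In the hybrid of C57 and NOD, 0 of 2 genes were called lower on the NOD allele, against 0.732% of all genes tested, and 1 of 2 passed the filter. Trim12a was listed at 0 in all 8 columns. Vill had a NOD to C57 ratio of 1.048, 1.049 and 1.045 in 3 libraries and was listed at 0 for both alleles in the other. In the parental cells Vill had 7 reads in NOD and 4056 in C57. Whether a ratio this constant measures the alleles was not tested. In this hybrid 53.6% of 7057 genes at the C57 level were listed at 0 in all 8 columns, as were 13 of the 18 members (72.2%), so it held few values for them.

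**Figure D5:**
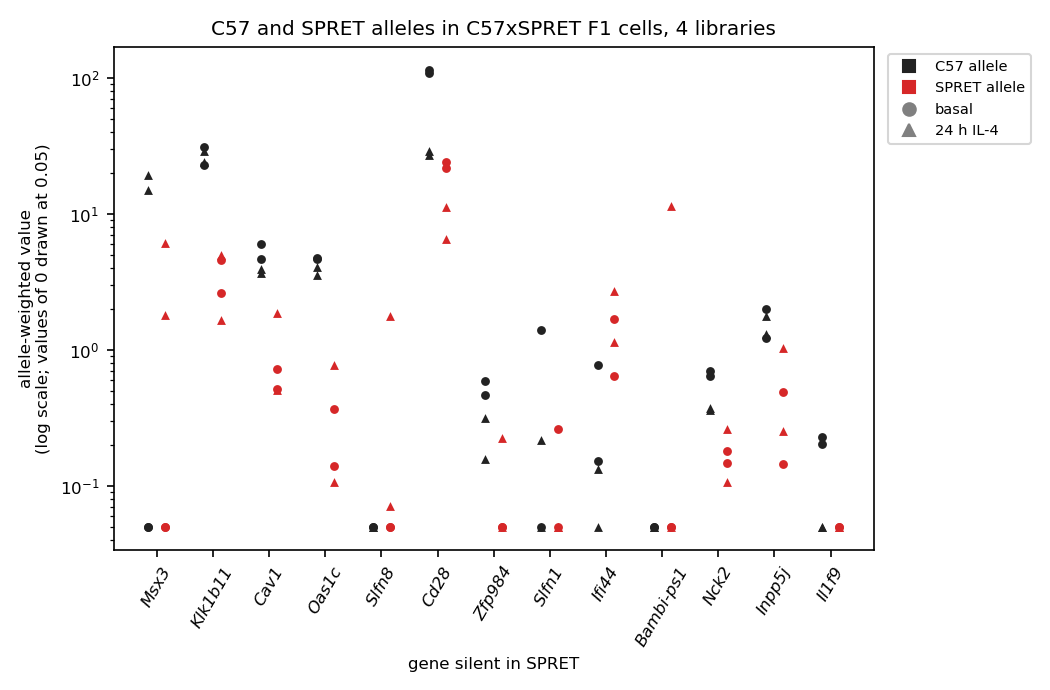
Allele-weighted values of the SPRET-silent genes on the C57 and SPRET alleles in the 4 hybrid libraries, on a log axis with values of 0 drawn at 0.05. Klk1b11, Oas1c, Cd28 and Cav1 have the lower value on the SPRET allele in every library.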

How the data were processed

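RNA-seq libraries of poly(A) RNA were made by the submitters from BMDMs of the 5 strains, the time course, the Egr2 genotypes and the F1 hybrids. The authors aligned 75-base single-end reads to a genome of each strain with STAR, shifted them to mm10 coordinates, and deposited exon-level TPM per gene from HOMER. Whether counting used the strand is not given in the sources used here. In the hybrids the deposited values are expression weighted by allele. Columns of the authors' own fold changes and p-values were not used, nor were 8 per-sample columns of a human table.

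The members, lists and tests were chosen with earlier results of these data known. Genes with at least 1 TPM in 2 columns were tested with limma 3.58.1 (R 4.3.3) on log2(TPM + 1), in a model of group means with trended empirical Bayes moderation. The pseudocount understates changes of low genes. A gene was called at a Benjamini-Hochberg adjusted p under 0.05 over all genes tested and a difference over 2-fold, and the hybrid tests held the library as a block. The scripts were tested on simulated data. All 18 members are named. Relatives were found with blastn 2.17.0 against GENCODE M21 transcripts, and promoters are from RefSeq, which matched 15 of 18 members. Reads recovered from TPM cover counting error only. Depth and markers are in the report, and alternatives (pseudocounts, scaling, limits, libraries left out, replicate block) are in the closing section.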

Additional observations from a re-analysis of the deposited data

Results flagged for a closer look

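The response of 4 genes to 24 hours of IL-4 differed between NOD and BALB by more than 1 on the log2(TPM + 1) scale, in a limma test of the difference itself. NOD minus BALB was 1.18 for Abcb4 (SE 0.15, adjusted p = 3.06e-06), 1.38 for Ifi44 (SE 0.19, adjusted p = 9.11e-06), 1.12 for Slfn8 (SE 0.19, adjusted p = 0.000134) and -1.90 for Msx3 (SE 0.17, adjusted p = 1.69e-08). The value of Msx3 depends on the pseudocount, since its NOD mean was 0.083 TPM before and 0.423 TPM after IL-4 against 1.55 and 11.5 TPM in BALB, and is not a ratio of the fold responses. Ifi44 in BALB fell from 36.5, 29.1 and 25.1 TPM to 10.96, 10.8 and 11.1 TPM, while in NOD it was 16.6, 18.5 and 15.6 TPM before and 17.7, 15.3 and 18.1 TPM after.

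PWK differed from BALB in the response of Cav1, by 1.27 (SE 0.12, adjusted p = 6.45e-08), and of Ifi44, by 1.34 (SE 0.20, adjusted p = 2.7e-05). Both comparisons rest on 2 basal PWK libraries.

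In the Egr2 experiment the 24-hour response in LyzMCre Egr2flfl minus that in Egr2flfl was -1.01 for Cav1 (SE 0.17, adjusted p = 0.00233), 1.09 for Ifi44 (SE 0.20, adjusted p = 0.00329) and 1.27 for Msx3 (SE 0.16, adjusted p = 0.000259). Msx3 went from 0.538 and 0.771 TPM to 36.8 and 37.4 TPM with Egr2 and from 0 and 0.169 TPM to 57.7 and 60.4 TPM without it.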

How the results depend on the processing

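The number of members moved with the limits of the rule. It was 9 with silence set below 0.05 TPM, 40 below 0.2 TPM, 54 with C57 at 2 TPM or more, 6 at 10 TPM or more, 40 with silence asked of basal libraries only, 30 of 24hIL4 libraries only, and 24 to 28 with 1 replicate left out. For BALB the count was 2, 2 and 2 (below 0.2 TPM, C57 at 2 TPM, basal only) and 1 (24hIL4 only). For NOD it was 0 below 0.05 TPM, 5 below 0.2 TPM, 6 with C57 at 2 TPM, 6 in basal only and 1 with median-ratio scaling. For PWK it was 2, 10, 15, 1 and 20 (below 0.05, below 0.2, C57 at 2, C57 at 10, basal only) and 6 to 12 with a replicate left out, and for SPRET 8, 29, 41, 4, 24 and 24 (the same and 24hIL4 only) and 18 to 21. A pseudocount of 5 lowered the calls to 7 and 7 for SPRET against C57 in the time course at basal and 24 hours, 2 for genes lowered in C57, 0 and 2 for Egr2 at basal and 24 hours, 0 for the NOD response and 2 for the SPRET allele. A pseudocount of 0.1 gave 6, 3, 1 and 1 for the responses in BALB, NOD, PWK and SPRET. Leaving out a replicate gave 1 to 2 calls for Egr2 at basal and 0 to 1 for the NOD response. Of 367 repeats of single-gene calls 332 kept the call, 35 lost it (21 at a pseudocount of 5) and 0 changed sign. The causes were not tested.

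Replicates with the same number in 2 groups correlated at -0.081 to 0.333, so the numbers were not taken as pairs. A replicate block left the counts at 13, 11, 1, 4, 4, 4, 3, 1, 0 and 0. In the hybrid of C57 and SPRET, the alleles of 1 library are paired, and with no replicate block 3 genes were called instead of 4, Cd28 having an adjusted p of 0.0968 by limma. Leaving out libraries of that hybrid lost the call of Cav1, at an adjusted p of 0.0534 without 24hIL4 replicate 1 and 0.0518 without basal replicate 2.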
